A study of Mus musculus with 8 samples.

Results

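The genes described here are 10 that carry iron uptake and iron sensing, chosen by name: Tfrc, Slc11a2, Steap3 and Cybrd1 for uptake, Aco1 and Ireb2 for the iron regulatory proteins, Fbxl5, Skp1 and Cul1 for the ligase that removes one of these proteins, and Rc3h1 for decay of the Tfrc transcript. They were chosen with earlier results of these data known, and are 10 of the 57010 genes in the deposited files. All 10 were found, Skp1 under its older symbol Skp1a, and all 10 were among the 13378 genes that passed a filter on low counts.

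Bulk RNA sequencing was done on wild-type (wt) C57BL/6 mouse T cells, sorted by flow cytometry as naive CD4 cells of peripheral lymph nodes. The FAC group holds 4 libraries of cells that received added iron in culture, and the control group holds 4 libraries of cells that did not. Both groups were grown in RPMI GlutaMAX with 10% FCS and stimulated for 20 h by surface-bound antibodies to CD3 and to CD28, 4 µg/mL of each, which trigger antigen receptor and costimulatory signalling. Each of 4 mice gave 1 FAC and 1 control culture. The labels state neither the iron dose, nor the age or sex of the mice, nor whether control cultures received a vehicle. The libraries show the cells at a single time after activation.

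Cells take up iron bound to transferrin through the transferrin receptor, whose cargo is freed in acidified endosomes, reduced to ferrous iron and moved into the cytosol. When iron is scarce, iron regulatory proteins bind iron-responsive elements, short RNA hairpins. Binding in the tail of the Tfrc transcript protects it from decay, while binding near the start of ferritin and ferroportin transcripts blocks their translation. Iron ends the binding of IRP1 by giving it an iron-sulphur cluster, and stabilises FBXL5, which marks IRP2 for destruction. Activated T cells depend on the transferrin receptor for proliferation.

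Library totals ran from 25410267 to 37350609 counts, and the tested genes held 99.9% of them. Of the 13378 tested genes, 438 differed between FAC and control cultures at an adjusted p under 0.05 in edgeR's quasi-likelihood test, which is 3.27% of those tested; 1.10% were lower and 2.18% higher with FAC. The median log2 change over all tested genes was -0.001. That fit used the group alone. With the mouse as a replicate block, 919 genes passed, 6.87% of those tested. The summed TPM (a level per unit of transcript length, with the same sum in every library) of 5 T cell markers was 1907 to 1944 in FAC libraries and 1802 to 1868 in control libraries, and the ranges did not overlap. Taken singly, 9.38% of all tested genes had TPM ranges that did not overlap. The summed TPM of other marker lists was 6.60 to 9.55 in FAC and 8.36 to 11.0 in control libraries for 2 CD8 T cell markers, and 2.95 to 4.93 and 2.36 to 3.11 for 5 myeloid markers. It was 0.010 to 0.15 in FAC and 0.020 to 0.050 in control libraries for 3 dendritic cell markers, 0.440 to 0.580 and 0.390 to 0.820 for 3 natural killer cell markers, and 3.77 to 5.51 and 3.37 to 4.65 for 4 stromal markers. Lyz2, Siglech, Ncr1 and Slc4a1, markers of myeloid, plasmacytoid dendritic, natural killer and red blood cells, had no count in any library. The 7 erythroid markers, Slc4a1 among them, summed to 0 to 0.560 TPM in FAC and 0.0400 to 13.5 TPM in control libraries. The 4 adult globin genes had counts in control mouse 3 alone, 125 in sum. None of the few markers of these lists with enough counts to be tested passed. Those tested were 5 of 5 T cell, 1 of 2 CD8 and 1 of 5 myeloid markers. Of the other lists 0 of 3 dendritic, 1 of 3 natural killer, 0 of 7 erythroid and 1 of 4 stromal markers were tested.

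With FAC, Tfrc fell to 0.578 times its control level and was the only one of the 10 genes to pass the test, that is 1 of 10, against the 3.27% of all tested genes given above. Since the 10 were chosen with earlier results of these data known, that share is no test of them as a set. The other 9 did not pass: their log2 changes ran from -0.16 for Slc11a2 to 0.33 for Cybrd1, and the median of the 10 was -0.02. Among those 9, the 7 genes with a mean above 15 TPM had 95% intervals that lay within -0.27 to 0.20 on the log2 scale. An unadjusted p under 0.05 was reached by 3 of the 10, Tfrc, Slc11a2 and Aco1, and by 18.4% of all tested genes, so that 3 of 10 is near the background.

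**Figure D1:**
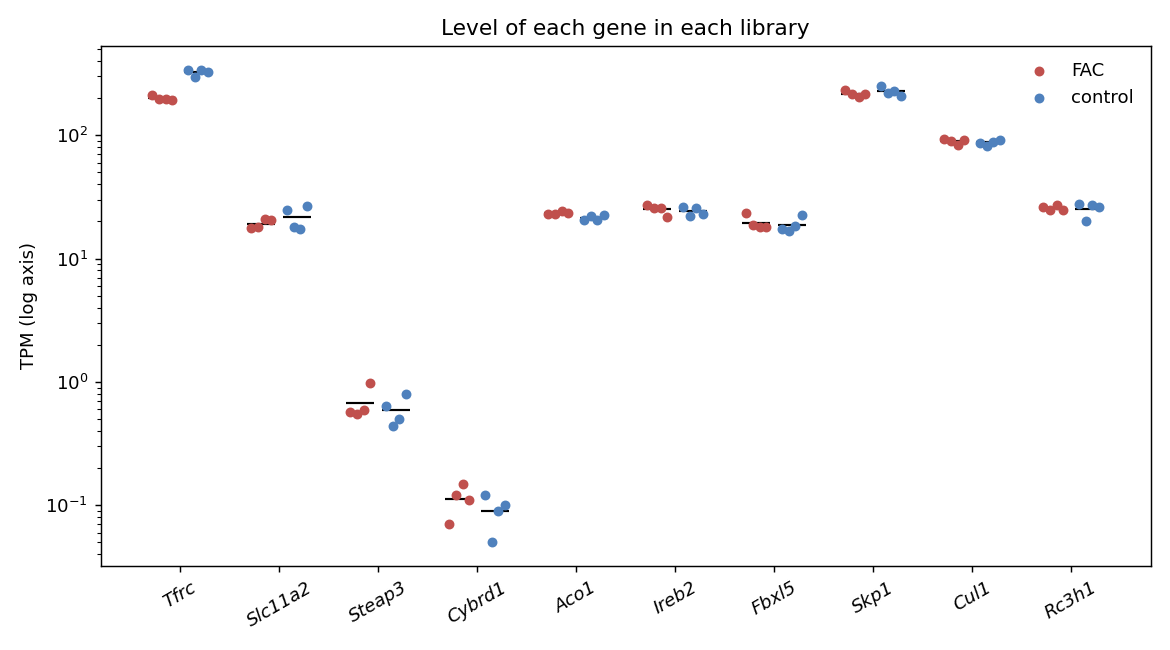
TPM of each of the 10 genes (log axis) in the 4 FAC libraries (red) and the 4 control libraries (blue), with a short line at each group mean. Tfrc lies at 191 to 212 TPM in FAC libraries and 295 to 340 TPM in control libraries, and of the other 9 genes Aco1 alone has no overlap, at 22.9 to 24.1 TPM in FAC and 20.5 to 22.4 TPM in control libraries; 9.38% of all tested genes had no overlap in TPM.

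**Figure D2:**
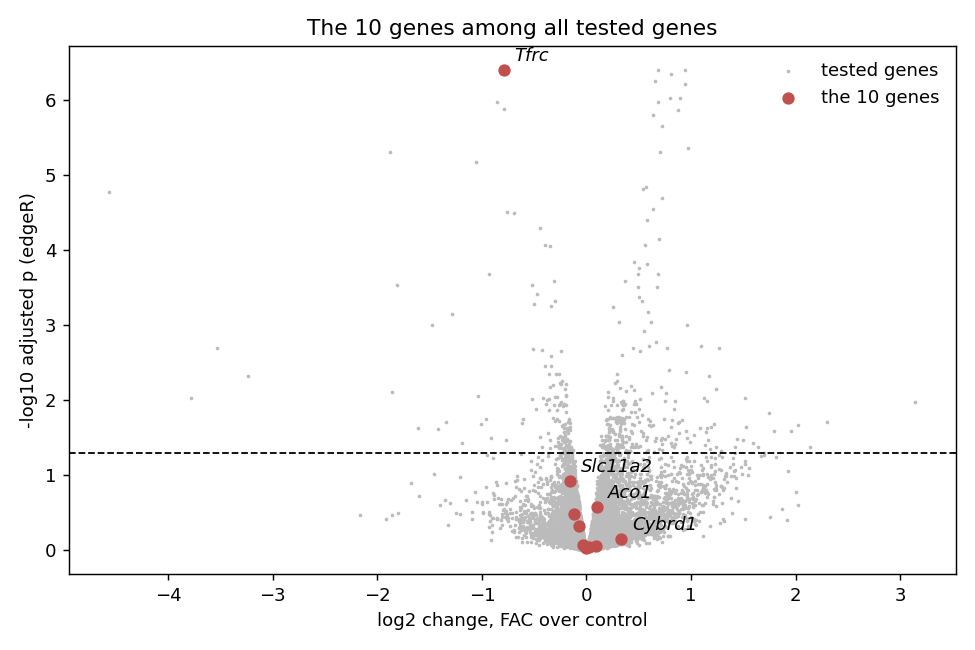
Log2 change, FAC over control, against -log10 of the edgeR adjusted p for all 13378 tested genes (grey) and the 10 genes (red), with a dashed line at an adjusted p of 0.05. Tfrc stands at -0.79 near the top, and the other 9 genes lie below the line.

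Tfrc (ENSMUSG00000022797) encodes the transferrin receptor, the main entry route for iron in proliferating cells. Its counts scaled to a common library total (CPM) were 617, 562, 566 and 544 in FAC cultures of mice 1 to 4, against 1009, 958, 1030 and 965 in their control cultures. The highest FAC value lay far below the lowest control value, and the 4 values of each group lay close together, with a coefficient of variation of 5.45% in FAC and 3.50% in control cultures. The underlying expected counts were 19419, 18302, 16452 and 13918 in FAC libraries and 25460, 35235, 31255 and 27417 in control libraries.

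Mean Tfrc was 572 ± 31.2 CPM in FAC cultures and 991 ± 34.6 CPM in control cultures (SD, n = 4 each), so the transcript fell by 42.2%. The log2 change was -0.79 (SE 0.04, 95% interval -0.88 to -0.70, edgeR adjusted p = 3.97e-07). Each of the 4 mice showed it, with -0.71, -0.77, -0.86 and -0.83 for mice 1 to 4. Tfrc ranked 2 of 13378 tested genes by p, and its difference of -418 CPM was the largest fall of any tested gene on that scale. In bulk RNA, fewer cells that carry the transcript and less transcript per cell cannot be told apart.

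On the length-scaled measure Tfrc was 212, 197, 195 and 191 TPM in FAC libraries, against 338, 295, 340 and 324 TPM in control libraries. These values did not overlap either. The authors' own normalised signal gave 18528, 17103, 16644 and 16684 with FAC and 30097, 27353, 30159 and 28634 in control libraries, again without overlap. Set against the summed TPM of the other 9 genes in the same library, a ratio that needs no scaling between libraries, Tfrc was 0.461 to 0.482 with FAC and 0.732 to 0.799 in control cultures. Tfrc took 0.0548% to 0.0618% of all counts in FAC libraries and 0.0943% to 0.103% in control libraries.

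The iron-responsive elements were looked for in GENCODE M21 transcripts of the earlier mouse build GRCm38, and are shown because they are what joins Tfrc, Slc11a2 and the ferritins to the iron regulatory proteins. The search, on the transcript strand, asked for C, 5 bases, CAGTGN, and 5 bases that pair with the first 5 at 4 or more places, G with T allowed. In the lines that follow, the loop CAGTGN is in capitals and 5 bases are kept on either side of the match. Each name gives the gene and the base of its transcript at which the loop starts, counted from 1 at the 5′ end.
Tfrc, loop at 3327: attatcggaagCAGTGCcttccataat
Tfrc, loop at 3706: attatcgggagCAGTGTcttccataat
Tfrc, loop at 3771: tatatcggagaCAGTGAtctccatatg
Tfrc, loop at 3818: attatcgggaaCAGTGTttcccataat
Slc11a2, loop at 1809: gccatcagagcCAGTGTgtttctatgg
Ftl1, loop at 90: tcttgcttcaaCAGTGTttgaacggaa
Fth1, loop at 99: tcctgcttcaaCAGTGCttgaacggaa
Slc40a1, loop at 102: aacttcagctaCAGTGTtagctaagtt

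The 4 Tfrc matches all pair at 5 of 5 places and lie in the 3′ UTR of ENSMUST00000023486, a transcript of 4890 bases on chromosome 16 whose coding part runs from base 141 to 2432. The Slc11a2 match pairs at 4 of 5 places and lies in the 3′ UTR of ENSMUST00000138843, which has 4415 bases, with its coding part at 80 to 1765, on chromosome 15. The Ftl1, Fth1 and Slc40a1 matches pair at 5 of 5 places in the 5′ UTR, on chromosomes 7, 19 and 1. A match was found for 2 of the 10 genes and not for the other 8. The search also found none in Epas1 or Cdc42bpa, both listed here among transcripts with a known iron-responsive element. A gene without a match may therefore still hold an element. Over all 21901 protein-coding genes searched, 10.7% had a match and 1.34% had one with 5 paired places, so a single match is not rare. At least 4 matches in 1 transcript occurred in 4 genes, and 4 matches with 5 paired places in 1 gene, Tfrc. A match is a run of letters and not a shown binding site.

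**Figure D3:**
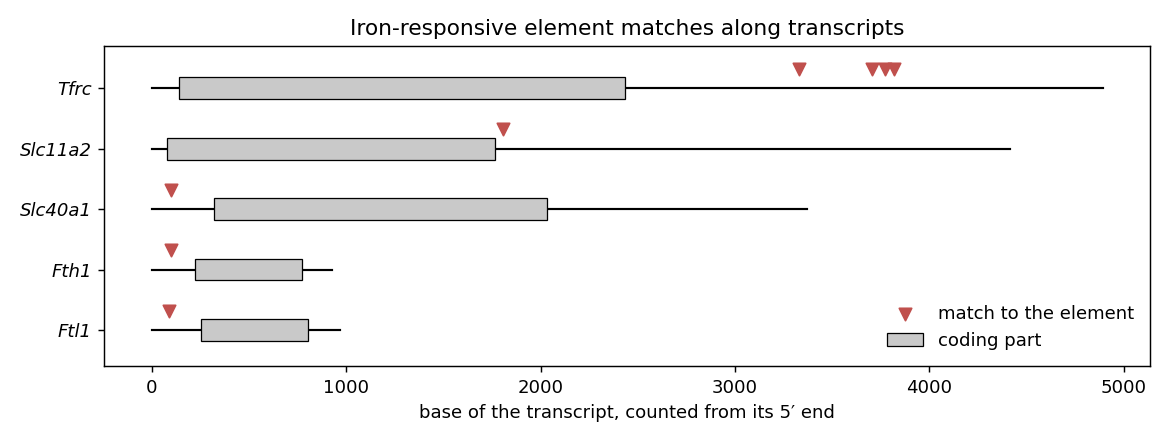
Matches to the iron-responsive element (red triangles) along 1 transcript each of 5 genes, drawn to scale in bases from the 5′ end, with the coding part as a grey box. The 4 matches of Tfrc and the match of Slc11a2 lie after the coding part, and those of Slc40a1, Fth1 and Ftl1 lie before it.

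RSEM also gives a transcript length per gene and library, weighted by the estimated abundance of the gene's transcripts, which moves with the mix of isoforms. For Tfrc it was 4271, 4204, 4320 and 4176 bases in FAC libraries of mice 1 to 4, against 4314, 4526, 4392 and 4331 bases in control libraries. It was lower with FAC in 4 of 4 mice, which 9.47% of the 10512 genes with a varying length also showed, and the groups overlapped, since FAC mouse 3 lay above control mouse 1. The means were 4243 ± 65.1 bases with FAC and 4391 ± 96.2 bases in control libraries (SD, n = 4 each), and no test was run. Of the 7 Tfrc transcripts in the deposited files, 2 carry the 4 matches, and the longest without them has 1860 bases. The 2 carriers have 4890 and 3527 bases, the shorter being a retained-intron transcript. A lower weighted length therefore does not show a lower share of transcripts with the matches.

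Slc11a2 (ENSMUSG00000023030) encodes DMT1, which carries ferrous iron across the endosomal membrane into the cytosol. It stood at 31.2, 31.4, 32.4 and 32.9 CPM in FAC cultures, against 35.8, 36.0, 33.5 and 37.7 CPM in control cultures. The ranges did not overlap, with FAC lower in 4 of 4 mice, with a log2 change of -0.05 in mouse 3 and -0.20 in each other mouse. Lower CPM without overlap was found for 4.89% of all tested genes, and without overlap in either direction for 11.1%; 2 of the 10 genes, Tfrc and Slc11a2, were among them. The log2 change of Slc11a2 was -0.16 (SE 0.05, 95% interval -0.27 to -0.05) and did not pass the test over all genes (edgeR adjusted p = 0.118).

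Per length the separation of Slc11a2 was lost: it had 17.6, 17.9, 20.9 and 20.4 TPM in FAC libraries and 24.9, 18.0, 17.4 and 26.8 TPM in control libraries. Control mice 2 and 3 lay below FAC mice 3 and 4. The weighted transcript length was 2673, 2646, 2378 and 2425 bases with FAC, against 2159, 2851, 2858 and 2124 bases in control libraries, and the control libraries split into 2 short and 2 long values that match their high and low TPM. Since TPM is scaled by transcript length, that match is not a separate observation. Of its 8 transcripts in the files, 1 carries the match, and the longest without it has 3025 bases. The transcript with and the transcripts without the element were not counted apart in the gene-level files.

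**Figure D4:**
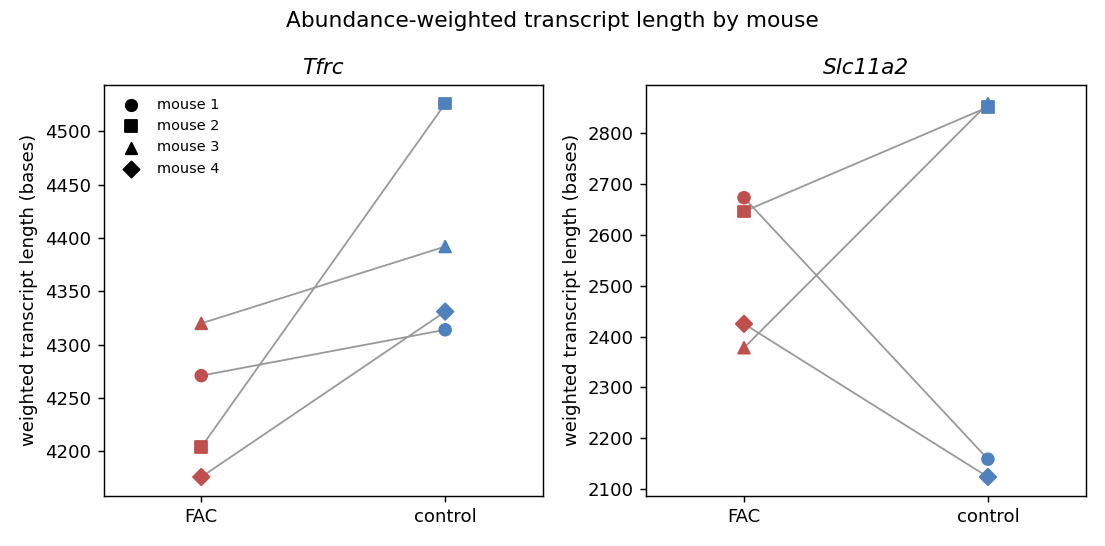
Abundance-weighted transcript length in bases (the axes do not start at 0) of Tfrc and Slc11a2 in FAC and control libraries, with a line joining the cultures of a mouse. All 4 Tfrc lines have the FAC end lower, while for Slc11a2 the FAC end is lower in 2 mice and higher in 2.

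Steap3 (ENSMUSG00000026389) and Cybrd1 (ENSMUSG00000027015) encode ferric reductases, STEAP3 of the transferrin endosome in red cell precursors and DCYTB of the gut surface. Both were near the lower limit of the assay. Steap3 had 0.57, 0.55, 0.59 and 0.98 TPM in FAC libraries, against 0.64, 0.44, 0.50 and 0.80 TPM in control libraries, from 29 to 42 counts a library. The groups overlapped, and mouse 4 was highest in both. Its log2 change of 0.09 (SE 0.27, 95% interval -0.48 to 0.67) did not pass the test (edgeR adjusted p = 0.888).

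Cybrd1 had 8, 14, 16 and 10 counts in FAC libraries, against 11, 7, 10 and 10 counts in control libraries, which overlap. Its log2 change was 0.33 (SE 0.40, 95% interval -0.52 to 1.19, edgeR adjusted p = 0.705), and the data do not tell apart changes within that interval. The files hold 1 transcript of Cybrd1.

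The other genes of transferrin uptake and endosomal iron, a list of 23 without Tfrc, Slc11a2, Steap3 and Cybrd1, had 16 tested, of which 1 rose, 0 fell and 15 did not pass; their median log2 change was -0.01. The gene that rose, Mcoln1, encodes an iron-permeable channel of late endosomes and lysosomes. It averaged 22.0 ± 0.887 CPM with FAC and 17.4 ± 1.86 CPM in control cultures (SD, n = 4 each), a log2 change of 0.34 (SE 0.08, edgeR adjusted p = 0.0339), higher in 4 of 4 mice. This call was lost when FAC 2, FAC 3 or control 1, 2 or 3 was left out, with an edgeR adjusted p of up to 0.129. With the replicate block 2 rose, adding Ehd1 (0.15). Of all tested genes, 2.18% rose in the fit without the block and 4.07% with it. The reductase genes Steap1, Steap2 and Steap4 had no count in any library, nor had Hfe, a partner of the receptor. At these totals a count of 0 allows up to 0.0816 to 0.119 CPM, taken as 3 counts and covering counting error only. Trf, transferrin itself, had at most 4 counts in a library, and Tfr2, the second transferrin receptor, at most 8.

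**Figure D5:**
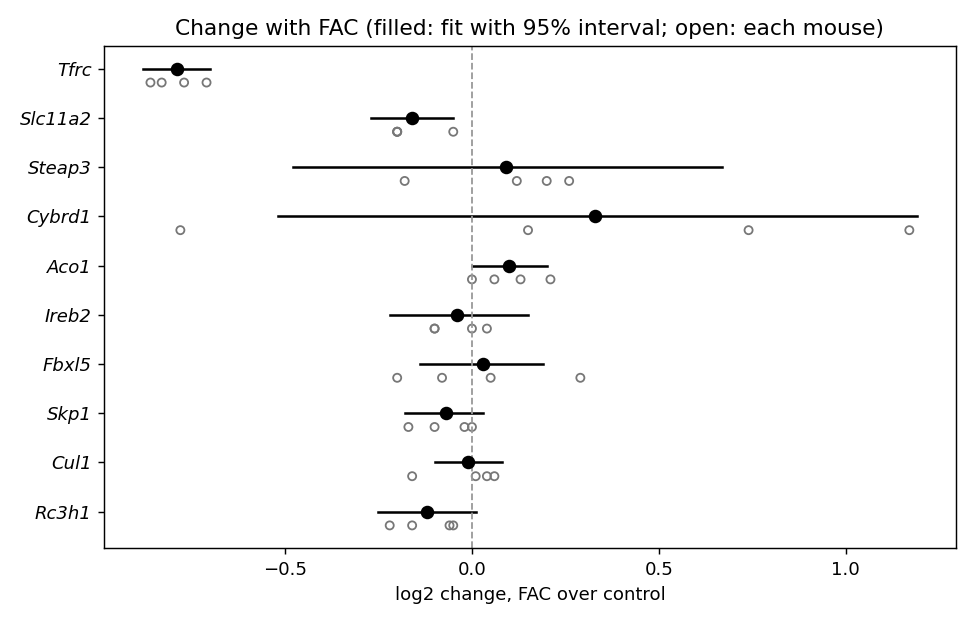
Log2 change, FAC over control, of each of the 10 genes: filled points are the fit over all 8 libraries with its 95% interval, open circles the 4 mice. The Tfrc interval, -0.88 to -0.70, and the Slc11a2 interval, -0.27 to -0.05, lie wholly below 0, while Steap3 and Cybrd1 have the widest intervals. The Aco1 interval, 0.00 to 0.20, has its lower end at 0 as rounded. The intervals are not adjusted for the number of genes tested, and Slc11a2 and Aco1 did not pass the test. An unadjusted p under 0.05 was reached by 18.4% of all tested genes.

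Aco1 (ENSMUSG00000028405) encodes IRP1, which is a cytosolic aconitase when it holds its iron-sulphur cluster and an RNA-binding protein when it does not. It had 58.7, 58.0, 61.4 and 55.6 CPM with FAC, against 53.5, 55.5, 53.2 and 55.8 CPM in control cultures. FAC cultures of mice 1 to 3 lay above every control culture, and FAC mouse 4 fell just below its own control. The log2 change was 0.10 (SE 0.05, 95% interval 0.00 to 0.20) and did not pass the test (edgeR adjusted p = 0.265). In TPM it was 22.9 to 24.1 with FAC and 20.5 to 22.4 in control libraries, which do not overlap, as was so for 9.38% of all tested genes; in CPM the groups overlapped.

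Ireb2 (ENSMUSG00000032293) encodes IRP2, whose amount is set mostly by degradation of the protein, which RNA sequencing does not measure. It had 107, 87.0, 94.5 and 80.3 CPM with FAC, against 104, 86.7, 102 and 85.8 CPM in control cultures. The values overlapped fully, and mouse 1 was highest in both groups. The log2 change of -0.04 (SE 0.08, 95% interval -0.22 to 0.15, edgeR adjusted p = 0.864) turned to 0.04 in the TPM fits and 0.01 with a length offset.

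The balance of the IRP transcripts was read as the ratio of Ireb2 to Aco1 TPM within a library. It was 1.19, 1.11, 1.06 and 0.92 with FAC, against 1.27, 1.01, 1.24 and 1.03 in control libraries. The groups overlapped, with FAC lower in 3 of 4 mice. The means were 1.07 ± 0.115 with FAC and 1.14 ± 0.138 in control libraries (SD, n = 4 each), a log2 difference of -0.08 with p = 0.514 in a two-sided exact permutation test over 70 assignments of the libraries. These assignments do not keep the cultures of a mouse paired.

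Of 8 transcripts with a known iron-responsive element besides those of Tfrc and Slc11a2, 5 were tested, 1 rose, 0 fell and 4 did not pass. Among all tested genes 2.18% rose. Ftl1, the ferritin light chain of iron stores, averaged 349 ± 18.1 CPM with FAC and 305 ± 18.0 CPM in control cultures, a log2 change of 0.19 (SE 0.05, edgeR adjusted p = 0.0449), higher in 4 of 4 mice. The Ftl1 call was lost when any library but FAC 1 or control 2 was left out (highest edgeR adjusted p = 0.152). Fth1, the ferritin heavy chain, averaged 340 ± 15.4 CPM with FAC and 324 ± 23.0 CPM in control cultures and did not pass (log2 change 0.07, edgeR adjusted p = 0.525). Slc40a1, ferroportin, the only known cellular iron exporter, had no count in any library. Ferritin genes have near-identical pseudogene copies, over which estimated counts can be divided, so their values are uncertain. Because these 5′ elements act on translation, RNA levels do not report their use.

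Of 10 genes that deliver iron-sulphur clusters to cytosolic and nuclear proteins, 10 were tested, 1 rose and 9 did not pass, with a median log2 change of -0.03. Mms19, a targeting subunit, averaged 74.2 ± 5.59 CPM with FAC and 63.3 ± 3.31 CPM in control cultures, a log2 change of 0.23 (SE 0.06, edgeR adjusted p = 0.0499), higher in 4 of 4 mice. Leaving out any library but FAC 4 ended that call, with an edgeR adjusted p of up to 0.177. With the replicate block 2 rose, adding Ndor1 (0.23). The share of all tested genes that rose was 2.18% without the block and 4.07% with it.

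Fbxl5 (ENSMUSG00000039753) encodes the iron-sensing F-box protein that brings IRP2 to the SCF ligase. It had 39.6, 33.2, 31.5 and 30.3 CPM with FAC, against 32.3, 32.0, 33.2 and 34.8 CPM in control cultures. FAC mouse 1 was highest and the groups overlapped, with FAC lower in 2 of 4 mice and higher in the other 2. The log2 change was 0.03 (SE 0.08, 95% interval -0.14 to 0.19, edgeR adjusted p = 0.892).

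Skp1 (ENSMUSG00000036309), the adaptor that holds F-box proteins in the ligase, had 205, 190, 178 and 185 CPM with FAC, against 208, 203, 200 and 185 CPM in control cultures. The highest value in each group was that of mouse 1, and the groups overlapped. Its log2 change of -0.07 (SE 0.05, 95% interval -0.18 to 0.03) did not pass (edgeR adjusted p = 0.475).

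Cul1 (ENSMUSG00000029686), the scaffold of the ligase, had 172, 164, 154 and 168 CPM with FAC, against 165, 163, 171 and 163 CPM in control cultures. FAC cultures held both the lowest and the highest value. Its log2 change of -0.01 (SE 0.04, 95% interval -0.10 to 0.08, edgeR adjusted p = 0.930) turned to 0.03 in the TPM fits.

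Of 18 further genes of the SCF and cullin core, all tested, 0 rose, 2 fell and 16 did not pass, with a median log2 change of -0.07. In the same fit 1.10% of all tested genes fell. Nedd8, the ubiquitin-like protein whose attachment activates cullins, averaged 122 ± 3.34 CPM with FAC and 138 ± 1.14 CPM in control cultures, a log2 change of -0.17 (SE 0.04, edgeR adjusted p = 0.0194). Rnf7, a RING subunit that works mainly with the cullin Cul5, averaged 65.6 ± 1.03 CPM with FAC and 74.9 ± 2.26 CPM in control cultures, a log2 change of -0.19 (SE 0.04, edgeR adjusted p = 0.0255). Both were lower in 4 of 4 mice. Both calls were lost in the TPM fits, on the signal and with the length offset; the Nedd8 log2 change became -0.05 (limma adjusted p 0.611 and 0.615) in the TPM fits and -0.09 in the other 2 (adjusted p 0.330 and 0.359). With the replicate block 3 fell, adding Fbxw7 (-0.25), and 1 rose, Btrc (0.28). In the block fit 2.80% of all tested genes fell and 4.07% rose. Leaving out FAC 3 or control 1 or 2 ended both calls, and leaving out FAC 2 ended that of Rnf7 (highest edgeR adjusted p 0.0823 for Nedd8 and 0.0898 for Rnf7). Rbx1, the RING subunit of the Cul1 ligase, averaged 74.5 ± 2.96 CPM with FAC and 78.8 ± 1.95 CPM in control cultures and did not pass (log2 change -0.08, edgeR adjusted p = 0.343). Of 15 other F-box genes of the Fbxl family, all tested, 0 rose and 0 fell, with a median log2 change of 0.02; with the replicate block 2 rose, Fbxl20 (0.22, edgeR adjusted p = 0.0377) and Kdm2b (0.13, edgeR adjusted p = 0.0322).

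Rc3h1 (ENSMUSG00000040423) encodes Roquin-1, an RNA-binding protein that recognises stem-loops in 3′ UTRs and directs transcripts, that of Tfrc among them, to decay. It had 142, 123, 129 and 115 CPM with FAC, against 147, 129, 145 and 134 CPM in control cultures. FAC was lower in 4 of 4 mice but the groups overlapped. The log2 change of -0.12 (SE 0.06, 95% interval -0.25 to 0.01, edgeR adjusted p = 0.325) turned to 0.03 and 0.04 in the TPM fits. In TPM it had 26.1, 24.8, 27.1 and 24.6 with FAC and 27.5, 20.1, 27.1 and 26.3 in control libraries.

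Of 17 other genes of Roquin, Regnase and AU-rich element decay, all tested, 0 rose and 0 fell, with a median log2 change of -0.02. With the replicate block 1 fell, Dcp2 (-0.14, edgeR adjusted p = 0.0329), as did 2.80% of all tested genes. Rc3h2, the Roquin-1 paralogue, had a log2 change of -0.09 (edgeR adjusted p = 0.706), which became 0.02 in the TPM fits, and Zc3h12a, the nuclease Regnase-1, one of -0.14 (edgeR adjusted p = 0.182). Neither passed.

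Among 10 transcripts reported as targets of Roquin or Regnase in mouse, without Tfrc, 9 were tested, 0 rose, 2 fell and 7 did not pass, with a median log2 change of -0.14. The share of all tested genes that fell in this fit was 1.10%. Nfkbid, an atypical NF-kB inhibitor, averaged 198 ± 6.89 CPM with FAC and 243 ± 6.36 CPM in control cultures, a log2 change of -0.30 (SE 0.04, edgeR adjusted p = 4.79e-04) that kept its call whichever library was left out. Tnfrsf4, the costimulatory receptor OX40, averaged 327 ± 9.95 CPM with FAC and 361 ± 8.81 CPM in control cultures, a log2 change of -0.14 (SE 0.04, edgeR adjusted p = 0.0422). Its call was lost without any library but FAC 1 (highest edgeR adjusted p = 0.154). With the mouse as a replicate block 5 of the 9 fell, adding Tnf, Il2 and Icos at log2 changes of -0.70, -0.33 and -0.17, where 2.80% of all tested genes fell in that fit. Over all 7 lists, 7 of 90 tested genes passed, 3 higher and 4 lower, which is 7.78% against the 3.27% of all tested genes in the same fit. With the block it was 17 of 90, or 18.9%, against 6.87% of all tested genes in that fit, 4.07% higher and 2.80% lower. The lists were chosen with earlier results of these data known, so these shares are no test of the lists. In the TPM fits, on the signal and with the length offset, Nfkbid alone of the 7 kept its call in all 4; Ftl1 kept it in the TPM fits only.

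Ordered by mean TPM, the 10 genes ran in FAC cultures from Skp1 at 217 and Tfrc at 199, whose ranges overlapped, through Cul1 at 89.2, to Rc3h1 at 25.7, Ireb2 at 25, Aco1 at 23.4, Fbxl5 at 19.5 and Slc11a2 at 19.2. Neighbours within that last group of 5 overlapped. In control cultures Tfrc led at 324, above Skp1 at 226 without overlap, then came Cul1 at 87.5. The order below it was Rc3h1 at 25.2, Ireb2 at 24.2, Slc11a2 at 21.8, Aco1 at 21.4 and Fbxl5 at 18.9, again with overlapping neighbours. Steap3, at 0.672 with FAC and 0.595 in control cultures, and Cybrd1, at 0.11 and 0.090, stood apart at the foot in both. Tfrc and Skp1 thus exchanged the leading place between the groups.

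The weighted transcript length varied in 9 of the 10 genes and separated the groups in 0 of them, while 4.63% of all tested genes with a varying length had ranges that did not overlap. Over the 8 libraries, the tested genes with log2 CPM most like Tfrc by Pearson's r, a likeness that holds the group difference, were Ltb (0.986), Slc30a1 (0.986), Cish (0.984), Zbtb32 (0.982) and Pdcd1 (0.979). Among the 10 genes, r with Tfrc was 0.799 for Slc11a2, 0.649 for Rc3h1, 0.539 for Skp1 and 0.271 for Ireb2. It was 0.177 for Cul1, 0.029 for Fbxl5 and -0.758 for Aco1. These r describe the same 8 libraries and carry no test.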

How the data were processed

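RNA of 4 FAC and 4 control cultures was sequenced from 250 ng of total RNA with a stranded mRNA kit, per the labels' protocols. Per the submitters' processing notes, RSEM 1.3.1, STAR 2.7.6a, DESeq2 1.26.0, DESeq, R 3.6.3 and FastQC were used with GRCm39, with no role or order stated. Annotation release, strand setting in counting and scaling of the signal table are not given in the sources used here. For each library the authors deposited gene-level RSEM output, with expected counts (estimated reads per gene, not scaled between libraries), TPM, and weighted and effective transcript lengths, per the file headers. Between 66.7% and 68.0% of the nonzero expected counts lay within 0.005 of a whole number. A further deposited table holds a normalised signal for 13751 genes.

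Expected counts were rounded and tested with edgeR 4.0.16 (R 4.3.3): expression filter with minimum count 10 and minimum total 15, TMM factors, quasi-likelihood test on the group, Benjamini-Hochberg adjustment over all 13378 genes, called under 0.05. This is the edgeR adjusted p. CPM is on the TMM scale. The SE is the absolute log2 change over the square root of F, and is approximate. TPM fits used limma 3.58.1 on log2(TPM + 1), or + 0.1, for genes with a mean of at least 1 TPM, a scale that understates changes of low genes. DESeq2 1.42.0, other factors, no filter, a length offset, the signal and each library left out were further alternatives. The scripts were tested on simulated data.

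Replicates of a group differed beyond sampling noise. Same-numbered cultures come from the same mouse, per the labels. Deviations of log2(CPM + 0.5) from group means correlated across genes at 0.0568 to 0.205 within a mouse and at most 0.0479 between mice. Genes named are the 10, the called genes of 7 lists (at most 6 each), Fth1, Ftl1, Slc40a1, Rc3h2, Zc3h12a and Rbx1 whatever their result, and the 5 genes most like Tfrc; Steap, Hfe, Trf and Tfr2 genes and those called with the replicate block were added after their values were seen. The 10 genes and the lists were chosen with earlier results of these data known. Skp1 was matched as Skp1a, and transferrin as Trf, through RefSeq synonyms. Reads carry no molecular identifiers, so limits for 0 counts, taken as 3 counts, cover counting error only. The result of 1 further marker list is not reported here.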

Additional observations from a re-analysis of the deposited data

Results flagged for a closer look

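In 6 of 58 groups of 4 values, 1 library stood apart from the other 3; chance sets apart about 1 in 20 such groups. Steap3 in FAC mouse 4 was 1.60 CPM, with the other FAC libraries at 1.04 to 1.10, and 0.980 TPM, with the others at 0.550 to 0.590. Fbxl5 in FAC mouse 1 was 23.3 TPM, with the others at 17.9 to 18.8. The weighted transcript length of Fbxl5 in control mouse 4 was 2304 bases, with the others at 2676 to 2732, and its TPM there, 22.7, was the highest of the control group. The length of Skp1 in control mouse 1 was 1319 bases, with the others at 1392 to 1406. Rc3h1 in control mouse 2 was 20.1 TPM, with the others at 26.3 to 27.5, and its weighted length there, 8813 bases, was the longest of the 8. Since TPM is scaled by transcript length, length and TPM of the same gene and library are not separate observations. None of the values set apart belongs to Tfrc or Slc11a2.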

How the results depend on the processing

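Tfrc was called in 23 of 23 settings, 12 of which left out libraries, at -0.83 to -0.70 (adjusted p 3.60e-68 to 3.58e-04), and was the only one of the 10 called in each. The genes called over all genes, 438, became 736 without the filter, 797 and 786 in DESeq2 with and without independent filtering, 97 and 117 in limma on TPM + 1 and + 0.1, 156 on the signal, 187 with the length offset, 147 to 549 with 1 library left out, and 165 to 1217 with a mouse left out under the block. The list genes called, 7, became 12, 11, 11, 2, 2, 1 and 1 in the same order, 1 to 10 and 3 to 16. With the replicate block, which pairs cultures by mouse, 919 genes, 17 list genes and 1 of the 10 were called. The block p of the Ireb2 over Aco1 TPM ratio was 0.375 by exact sign flips. Over 4 mice that test cannot fall below 0.05 whatever the values, so it decides nothing. The log2 difference of the ratio was -0.14 to -0.01 with libraries left out. Signs turned for Ireb2 (0.04 and 0.04 in the TPM fits, 0.01 with the length offset, -0.11 to 0.02 with 1 library left out), Cul1 (0.03 and 0.03, -0.03 to 0.02, and 0.04 without mouse 3 under the block), Rc3h1 (0.03 and 0.04), Rc3h2 (0.02 and 0.02) and the Pcm1 log2 change (-0.01 without the filter, -0.07 to 0.04, and -0.04, -0.01 and -0.0016 without mouse 1, 2 and 4 under the block). With 1 library left out Steap3 ran from -0.07 to 0.25 and Fbxl5 from -0.06 to 0.07, or -0.07 without mouse 1 under the block, and the genes whose lengths separate the groups numbered 0 to 1 (Rc3h1 without FAC 1, Tfrc without FAC 3 or control 1, Fbxl5 without control 4). The causes were not tested. Steap3 and Cybrd1 are too low for the TPM fits.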

Other observations

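Within the groups, the transcripts that varied most like Tfrc did not pass the test between groups. On deviations of log2 CPM from the group means over the 8 libraries, the 5 tested genes most like Tfrc by Pearson's r were Rab8b (0.990), Zmym5 (0.990), Pcm1 (0.986), Cstf2 (0.984) and Zfp800 (0.983). Rab8b, a small GTPase of vesicle transport, averaged 568 ± 41.2 CPM with FAC and 617 ± 32.6 CPM in control cultures (SD, n = 4 each). Pcm1, a protein of centriolar satellites, averaged 59.5 ± 5.76 CPM with FAC and 59.4 ± 4.6 CPM in control cultures. Among the 10 genes, r on these deviations was 0.953 for Rc3h1, 0.944 for Ireb2, 0.746 for Fbxl5 and 0.676 for Skp1. It was 0.499 for Cul1, -0.008 for Aco1 and -0.677 for Slc11a2. The points share library, depth and mouse, and r is given as a description.

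The 4 adult globin genes had counts in 1 of 8 libraries, control mouse 3, summing to 125. The summed TPM of 7 erythroid markers was 0 to 0.560 in FAC libraries and 0.0400 to 13.5 in control libraries. Without control mouse 3, the log2 change of Tfrc was -0.78.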
